A study of Homo sapiens with 12 samples.

Results

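A group of 8 miRNAs that the curated database MirGeneDB does not list were followed through a SLAMseq experiment in the human hepatocellular carcinoma line Huh7: hsa-miR-941, hsa-miR-942-5p, hsa-miR-3158-3p, hsa-miR-4326, hsa-miR-4521, hsa-miR-618, hsa-miR-625-3p and hsa-miR-641 (the species prefix is left out below). They are 8 of the 2652 mature miRNAs in each deposited table. They were chosen by name, with earlier results of these data known, so the shares of members called below only describe them. All 8 exceeded 100 CPM (read counts scaled to the total of miRNA reads in a library) in every library, as did 158 miRNAs in all. The study's annotation marks 15 of those 158 as absent from MirGeneDB, and the 7 that are not among the 8 serve as a comparison. That split, too, was made with those results known. The CPM minimum is part of how the members were chosen, so their being expressed is no finding. The member nearest the minimum was miR-942-5p, at 105 CPM in its lowest library, and the nearest miRNA outside it was miR-27b-5p, at 99.8 CPM. The working name for this group calls these miRNAs young and primate-specific. No measurement here bears on their age, so they are described below by their absence from MirGeneDB.

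The 3 conditions, with 4 libraries each, held 1 library from each of 4 independent experiments in this single cell line. Control cells received the solvent DMSO and no 4-thiouridine (4SU). DMSO cells received solvent and 500 µM 4SU for 4 h. PlaB cells received pladienolide B, an inhibitor of the splicing factor SF3B1, and 500 µM 4SU for 4 h. The methods give a PlaB concentration of 1 µM, whereas the sample labels give 500 µM. DMSO libraries 1 and 2 each combine 3 sequencing runs. By the paper's account these runs were of the first library, a second library prepared anew and the first one after further amplification. The paper describes this for no Control or PlaB sample.

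MicroRNAs are cut from hairpins in longer primary transcripts, first by the Microprocessor in the nucleus and then by Dicer in the cytoplasm. Each hairpin has a 5p and a 3p arm, and usually one of them is the stable guide strand while the other is degraded. Bases 2 to 8 of the guide, the seed, pair with target mRNAs. During 4SU labelling, RNA made after the label was added carries 4SU, which after chemical treatment is read as C where the sequence has T. The T>C conversion rate, the number of conversions divided by the number of covered T positions, therefore reports how much of a miRNA was newly made. Mature miRNAs are long-lived, so that over a short pulse few of their molecules are new.

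The mature sequences are shown because each T (written U) is a position at which labelling can be read, and because the seeds separate these miRNAs from each other. RefSeq (GRCh38.p14) held 6 of the 8, written 5′ to 3′ with the seed in capitals, together with the second arm of the MIR942 hairpin.
miR-941: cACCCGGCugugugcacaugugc
miR-942-5p: uCUUCUCUguuuuggccaugug
miR-942-3p: cACAUGGCcgaaacagagaagu
miR-3158-3p: aAGGGCUUccucucugcaggac
miR-4521: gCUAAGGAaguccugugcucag
miR-618: aAACUCUAcuuguccuucugagu
miR-625-3p: gACUAUAGaacuuucccccuca
The 6 members with a sequence all had different seeds, and 0 other miRNAs among 2370 mature names carried any of those seeds. They held between 5 U positions (miR-941, miR-3158-3p and miR-4521) and 11 (miR-942-5p). miR-942-3p holds only 2. miR-4326 and miR-641 are named only.

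Of the 8, 7 lie within protein-coding genes, in introns of the canonical transcript (GENCODE 44, GRCh38). MIR941 is present as 5 copies, MIR941-1 to MIR941-5, in a tandem array between 63919449 and 63919939 on chromosome 20, plus strand, in intron 1 of DNAJC5, a chaperone of synaptic vesicles. An exon of 1 alternative DNAJC5 transcript overlaps the copies, and a lncRNA gene (ENSG00000290226) spans them on the same strand. MIR942 (chromosome 1, 117094643 to 117094728) lies in intron 18 of 22 of TTF2, a transcription termination factor. MIR4326 (chromosome 20, 63286808 to 63286866) lies in intron 12 of 12 of ARFGAP1, which activates the GTPase of ARF1 at the Golgi. MIR618 (chromosome 12, minus strand, 80935736 to 80935833) lies in intron 1 of 5 of LIN7A, a polarity scaffold protein. MIR625 (chromosome 14, 65471102 to 65471186) lies in intron 2 of 10 of FUT8, the enzyme of core fucosylation. MIR641 (chromosome 19, minus strand, 40282543 to 40282641) lies in intron 1 of 13 of AKT2, a kinase of insulin signalling. All of these have the strand of their host gene.

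MIR3158 is annotated on both strands of one 81-base interval (chromosome 10, 101601417 to 101601497) in intron 4 of 5 of DPCD, with MIR3158-1 in the direction of DPCD and MIR3158-2 against it. The 2 hairpins are each other's reverse complement, match at 70 of 81 positions and yield the same mature 3p sequence (capitals), which is why its reads cannot be assigned to a strand.
MIR3158-1: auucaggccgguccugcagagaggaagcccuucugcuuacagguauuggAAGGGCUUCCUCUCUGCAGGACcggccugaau
MIR3158-2: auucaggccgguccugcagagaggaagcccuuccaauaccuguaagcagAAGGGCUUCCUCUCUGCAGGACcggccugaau

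MIR4521 (chromosome 17, plus strand, 8186945 to 8187004) has no host gene in the annotation. Its mature sequence (8186948 to 8186969) starts 1 base past the end of the serine tRNA gene TRS-GCT4-3 (8186866 to 8186947), and the first 3 bases of the annotated hairpin lie inside that gene. The letters GTTCGA, typical of the T loop near the 3′ end of a tRNA, occur 1 time on the plus strand of this tRNA gene and 0 times on the minus strand, and end 15 bases before its end. The miRNA thus follows the tRNA on the same strand. Of 2545 mature miRNA loci, 1 (0.0393%), miR-4521 itself, starts within 2 bases of the end of any of 465 tRNA genes. RNA directly past the end of a tRNA gene is transcribed with the tRNA as a 3′ trailer that is cut away as the tRNA matures. Reads of such a trailer and reads of a Dicer product cannot be told apart in these counts. The hairpin is shown with the mature sequence in capitals; a run of U, uuuugu, follows it.
MIR4521: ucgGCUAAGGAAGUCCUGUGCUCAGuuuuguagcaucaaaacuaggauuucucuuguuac

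The libraries held 1522210 to 3880241 miRNA reads, and the 8 miRNAs together took 0.183% to 0.334% of them. The liver marker miR-122-5p was between 55353 and 105331 CPM in all 12 libraries, while the 5 blood cell markers reached at most 3.45 CPM. Of the 5 muscle and stroma markers, miR-206 was at 0 in all 12 libraries, miR-1-3p and miR-133a-3p reached at most 10.2 CPM, miR-145-5p was at 22 to 48.7 CPM and miR-143-3p at 43 to 137 CPM. The neuronal marker miR-9-5p was at 1.97 to 54.9 CPM and miR-124-3p reached at most 4.97 CPM. Libraries differ in depth, and intervals and floors given below cover counting error only. Nothing beyond the experiment number says how separately the cultures were handled. Unless a block is named, the fits hold no experiment term, and their p-values measure the spread between libraries within a condition.

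In unlabelled cells the 8 miRNAs ranged from 173 ± 16.1 CPM for miR-942-5p to 879 ± 186 CPM for miR-4521 (SD, n = 4). This places all of them in the lower part of the 158 miRNAs, whose median was 729 CPM, except miR-4521, which ranked 72 of 158. miR-618 (509 ± 42.9 CPM) and miR-941 (393 ± 159 CPM) followed miR-4521. The next in order were miR-625-3p (249 ± 51.5 CPM), miR-4326 (229 ± 29.1 CPM), miR-3158-3p (212 ± 26.4 CPM) and miR-641 (190 ± 28.2 CPM). Differences between neighbours among these last 4, and between miR-641 and miR-942-5p, were smaller than the larger of their SDs. Those between miR-618 and miR-941, and between miR-941 and miR-625-3p, were smaller than the SD of miR-941.

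**Figure D1:**
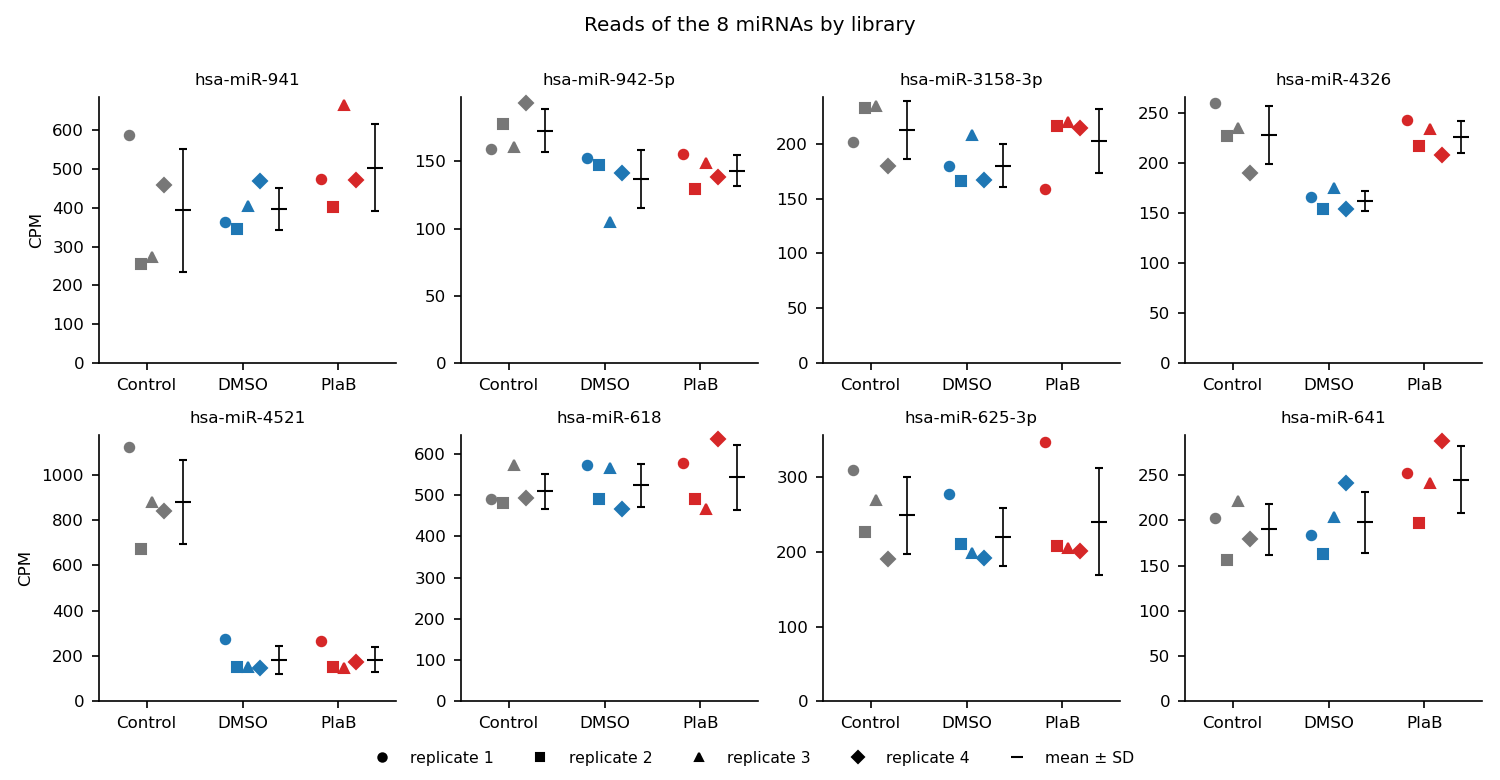
Reads of each of the 8 miRNAs in CPM (vertical axis, from 0, a different scale in each panel) in the 12 libraries, by condition; symbols mark the replicate number and the bar gives the mean ± SD of 4 libraries. miR-4521 lies at 673 to 1124 CPM in Control and at 146 to 275 CPM in all 8 labelled libraries, and miR-4326 is lower in DMSO than in both other conditions.

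The first comparison asked whether 4SU alone went with a change in the reads of these miRNAs. miR-4521 fell the most of the 8. Its reads in Control were 1124, 673, 880 and 840 CPM, and in DMSO 275, 151, 150 and 149 CPM. Every labelled library lay below every unlabelled one, with means that differed 4.85-fold. By edgeR's quasi-likelihood test over the 158 miRNAs, with Benjamini-Hochberg adjustment, the log2 fold change was -2.27 ± 0.222 (SE) with an adjusted p of 1.1e-05. This was the lowest fold change of the 158 miRNAs. PlaB libraries, also labelled, had 264, 150, 146 and 175 CPM, in the same range as DMSO.

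miR-4326 was the other member that fell. Its reads were 261, 227, 236 and 190 CPM in Control and 166, 154, 175 and 154 CPM in DMSO, again without overlap. On the log2 scale this was -0.47 ± 0.109 (SE), with an adjusted p of 0.0181 by edgeR. The call was lost on leaving out 1 of 3 libraries: adjusted p was 0.068 without Control replicate 1, 0.0546 without DMSO replicate 2 and 0.0787 without DMSO replicate 4. It was also lost without DMSO replicates 1 and 2 together (0.308) and with no filter on low counts (0.323).

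Thus 2 of 8 members fell and 0 rose, against 3.8% of all 158 that were lower. Groups did not overlap, with DMSO below Control, for 3 of 8 members (miR-4521, miR-4326 and miR-942-5p), against 6.33% of the 158. miR-942-5p had 159, 178, 161 and 193 CPM in Control and 153, 147, 105 and 142 CPM in DMSO, a log2 fold change of -0.32 that did not pass the test (range of adjusted p over the alternatives, 0.0731 to 0.582). The members' median log2 fold change was -0.19, beside 0.05 over all 158. None of the 7 other miRNAs absent from MirGeneDB was called (edgeR; 0 also at an unadjusted p under 0.05 and 0 by DESeq2), with a median of 0.12.

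The second comparison, PlaB against DMSO, asked whether splicing inhibition went with a change in read numbers. No member was called by edgeR (0 of 8, against 0.633% of the 158 in either direction). By edgeR's unadjusted p, 1 of 8 was under 0.05, against 5 of the 158. DESeq2 called 1 of 8, against 2 of the 158. In both cases this was miR-4326. Its PlaB libraries had 244, 218, 235 and 208 CPM, all above the 4 DMSO libraries and inside the Control range of 190 to 261 CPM. Reads in PlaB lay above DMSO without overlap for 1 of 8 members, against 1.27% of the 158. The log2 fold change of 0.47 was the highest of the 158 miRNAs, with an adjusted p of 0.0613 by edgeR. With the experiment number as a block the adjusted p was 0.0286, and the count of members called became 1. The two-sided permutation test of its CPM, 4 libraries against 4, gave p = 0.0286, unadjusted, which is the smallest that 70 labelings allow. These labelings ignore the experiment number, although libraries of the same experiment deviated together in reads, so this p is not exact. Without Control replicate 1 the adjusted p was 0.0382 and without Control replicate 4 it was 0.0428.

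The other 7 members had fitted log2 fold changes of reads between 0.01 (miR-4521) and 0.33 (miR-941), none past the test. miR-941 had 588, 255, 273 and 458 CPM in Control, 364, 346, 404 and 469 CPM in DMSO, and 474, 402, 663 and 471 CPM in PlaB. These ranges overlap in every pair of conditions. Reads of miR-618 were between 467 and 637 CPM in all 12 libraries. miR-641 was at 157 to 221 CPM in Control, 162 to 242 CPM in DMSO and 198 to 288 CPM in PlaB.

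**Figure D2:**
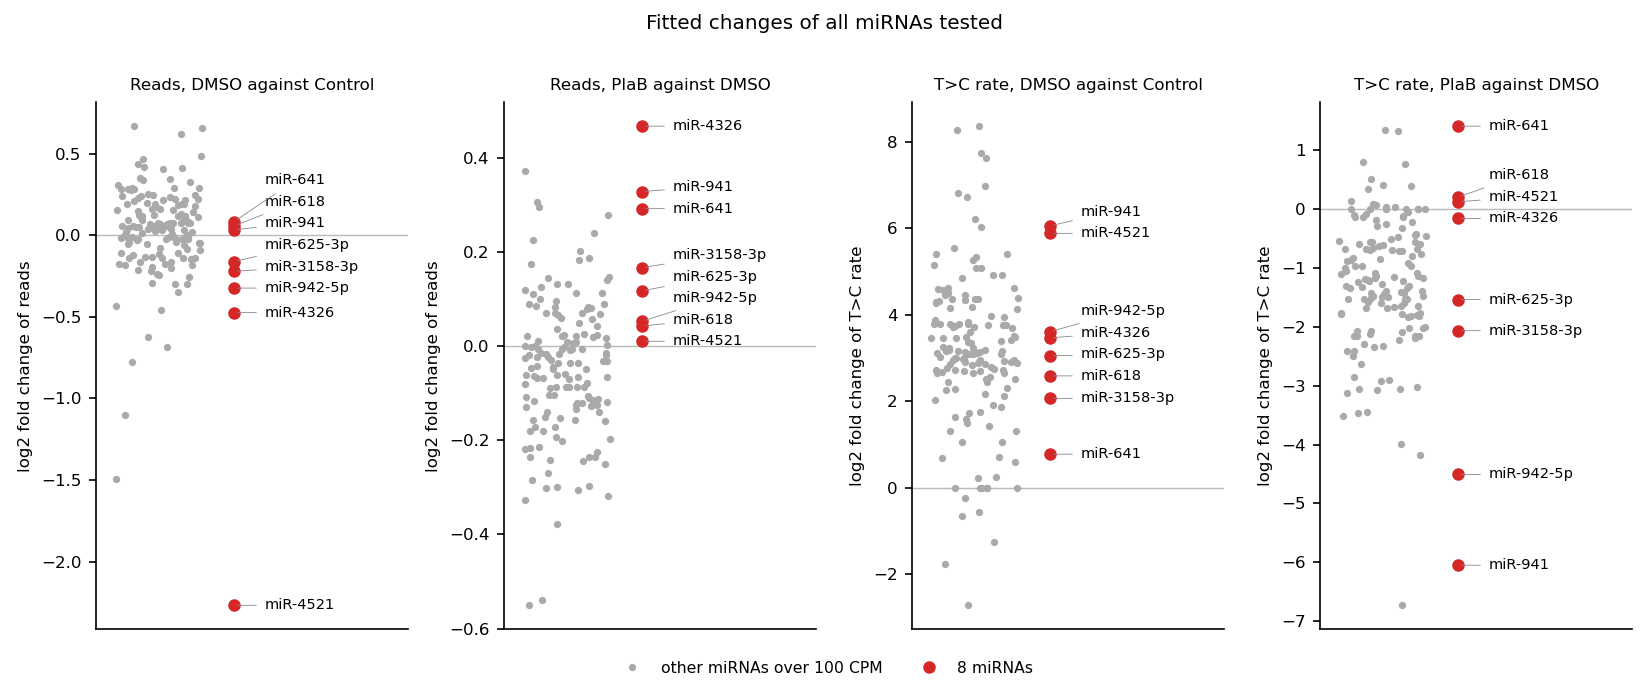
Fitted log2 fold changes (vertical axes) of all 158 miRNAs that were tested, with 1 panel each for reads and T>C rates in DMSO against Control and in PlaB against DMSO; grey points are the other 150 miRNAs, spread sideways for visibility, and red points the 8 miRNAs. miR-4521 lies below all others in the first panel at -2.27, and miR-941 and miR-942-5p lie near the bottom of the last panel at -6.05 and -4.51.

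Labelling was then measured as the T>C conversion rate. Without 4SU, the mean rate of the 8 ranged from 0% to 0.0753%, which is the background of the method. With 4SU, 6 of the 8 rose above that background (edgeR on conversions with covered T positions as offset), against 79.7% of the 158. In the count of groups without overlap, 5 of 8 were higher in DMSO, against 67.7%. The share among members is near that of all miRNAs. The 6 were miR-941, miR-942-5p, miR-4326, miR-4521, miR-618 and miR-625-3p. miR-3158-3p and miR-641 did not pass. Of the 7 others absent from MirGeneDB, 2 were called. That count is limited by sequence: in DMSO, reads covered 1 T position each for miR-6777-5p and 2.02 for miR-1260b. Both had 0 conversions in all conditions.

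**Figure D3:**
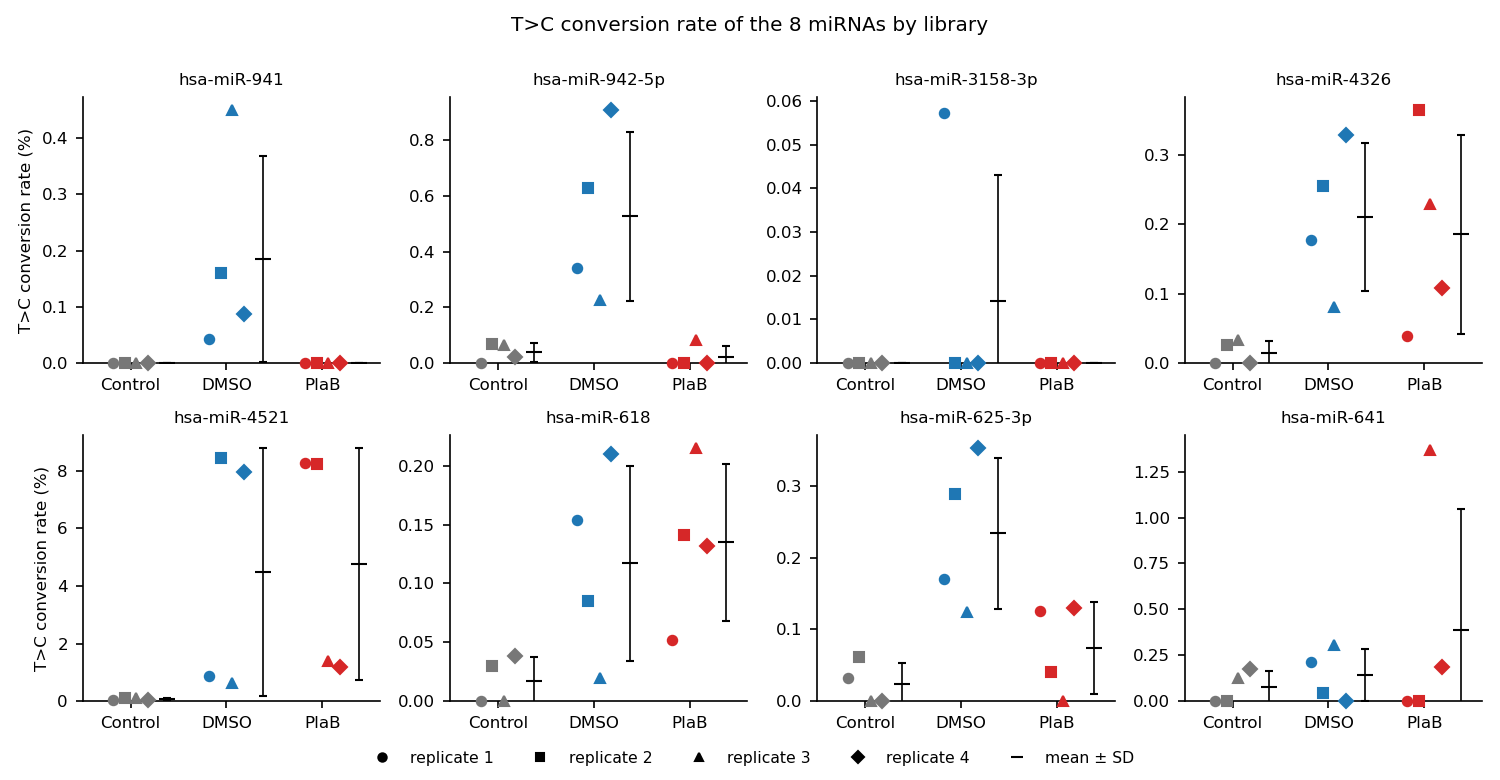
T>C conversion rate in percent of covered T positions (vertical axis, from 0, a different scale in each panel) of each of the 8 miRNAs in the 12 libraries; symbols mark the replicate number and the bar gives the mean ± SD of 4 libraries, with lower ends not drawn under 0. miR-941 has a rate above 0 in the 4 DMSO libraries alone, miR-942-5p is high only in DMSO, and miR-4521 reaches 8.46% on an axis far above that of the others.

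The third comparison, of rates in PlaB and DMSO, asked which of these miRNAs were still made when splicing was inhibited. The rates of 2 of 8 fell, those of miR-941 and miR-942-5p, against 44.9% of the 158. Groups did not overlap for the same 2 of 8, with PlaB lower, against 43% of the 158. The members' median log2 fold change was -0.85, beside -1.20 over all 158. The rates of 3 members, miR-4326, miR-4521 and miR-618, were higher in PlaB than in Control by the same test, against 51.9% of the 158. Groups did not overlap for these 3 of 8, with PlaB above Control, against 38%. No test was made of the difference in response between members.

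miR-941 carried 3, 9, 18 and 4 conversions in the 4 DMSO libraries and 0 in every Control and every PlaB library. Its mean rate in DMSO was 0.185 ± 0.183% (SD, n = 4), with single libraries at 0.043%, 0.16%, 0.451% and 0.0867%. The 34 conversions on 21207 covered T positions give a pooled rate of 0.16% (95% Wilson interval 0.115% to 0.224%). In PlaB, 0 conversions on 17162 positions allow a rate of up to 0.0175%, and in Control 0 on 15832 allow up to 0.0189%. The DMSO rate was thus at least 9.17-fold higher than in PlaB and at least 8.46-fold higher than in Control, with each floor set at 3 conversions over the group. These bounds take the pooled DMSO rate, not the lower end of its interval. DMSO replicate 3 held 18 of the 34 conversions, and without it the rate was 0.093% and the bounds were 5.32-fold against PlaB and 4.91-fold against Control. Without Control replicate 4 the bound against Control was 5.56-fold. The adjusted p by edgeR was 0.00132 against Control and 0.00239 for PlaB against DMSO. The fitted fold changes of -6.05 and 6.05 depend on the prior count and are no bound. All reads of miR-941 (100% in each library) were multi-mapped, as its 5 copies share the mature sequence, so which copy was labelled is not known.

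miR-942-5p carried 21, 31, 5 and 26 conversions in DMSO, 0, 3, 2 and 1 in Control, and 0, 0, 2 and 0 in PlaB. Its rates in DMSO were 0.342%, 0.626%, 0.228% and 0.908%, all above the highest rate of 0.0815% in the other 8 libraries. The pooled rate was 12.7-fold higher in DMSO than in Control. The log2 fold change in PlaB against DMSO was -4.51 ± 1.05 (SE; edgeR, adjusted p = 0.000629), the third lowest of the 158 miRNAs. Over the alternatives it ranged from -7.23 to -3.35. When reads with a conversion were tested per read it was -3.38 ± 0.892 (SE; edgeR, adjusted p = 0.00181), as PlaB held 5 such reads beside its 2 conversions. Pooled, DMSO exceeded PlaB 26.3-fold by conversions and 11.1-fold by reads with a conversion. Both PlaB conversions came from replicate 3, and without it the fold by conversions was at least 13.3, with the floor at 3 conversions over the group. Against Control, the rate in PlaB did not pass the test (log2 fold change -0.90 ± 1.27). miR-942-5p was the least abundant of the 158 miRNAs in DMSO. Its PlaB rate rests on 2 conversions on 10241 covered T positions (0.0195%, 95% Wilson interval 0.00536% to 0.0712%).

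The second arm of the same hairpin, miR-942-3p, was below the CPM minimum but carried more label. It had 25.8, 36.8, 33.7 and 50.2 CPM in Control, 59.8, 60.4, 83.3 and 62.5 CPM in DMSO, and 17.7, 32.3, 25.7 and 25.6 CPM in PlaB. The DMSO libraries all lay above the other 8. It was tested in a fit of all miRNAs that pass edgeR's filterByExpr, chosen after seeing the data. From DMSO to PlaB its reads changed by -1.38 ± 0.268 (SE) on the log2 scale, with an adjusted p of 0.0298, where 0.372% of 537 miRNAs were lower. That call was lost on leaving out any 1 of 9 of the 12 libraries, with adjusted p of up to 0.226. The increase with 4SU alone, 0.86 on the log2 scale, had an adjusted p of 0.0693 (0.931% of 537 were higher), and 0.016 with the experiment number as a block.

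Conversions of miR-942-3p numbered 57, 38, 38 and 49 in DMSO, 0 in all 4 Control libraries and 0, 5, 0 and 0 in PlaB. The rates in DMSO were 13.1%, 10.3%, 13.6% and 22.3%, and the share of reads with a T>C conversion was 24.6%, 19.7%, 22.5% and 39.8%. The same share for miR-942-5p was 2.82% to 9.32%. The rate of miR-942-3p was at least 26.5-fold higher in DMSO than in Control, with the floor at 3 conversions over the group, and 9.57-fold higher than in PlaB. Without Control replicate 4 the bound against Control was 16.1-fold. By edgeR, adjusted p was 1.32e-09 for DMSO against Control (33.4% of 503 miRNAs were higher) and 0.000466 for PlaB against DMSO (12.3% were lower). For PlaB against Control it was 0.0336 (21.9% were higher). All PlaB conversions came from replicate 2, and without that library there was no difference (log2 fold change 0). With the experiment number as a block the adjusted p was 0.0752.

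**Figure D4:**
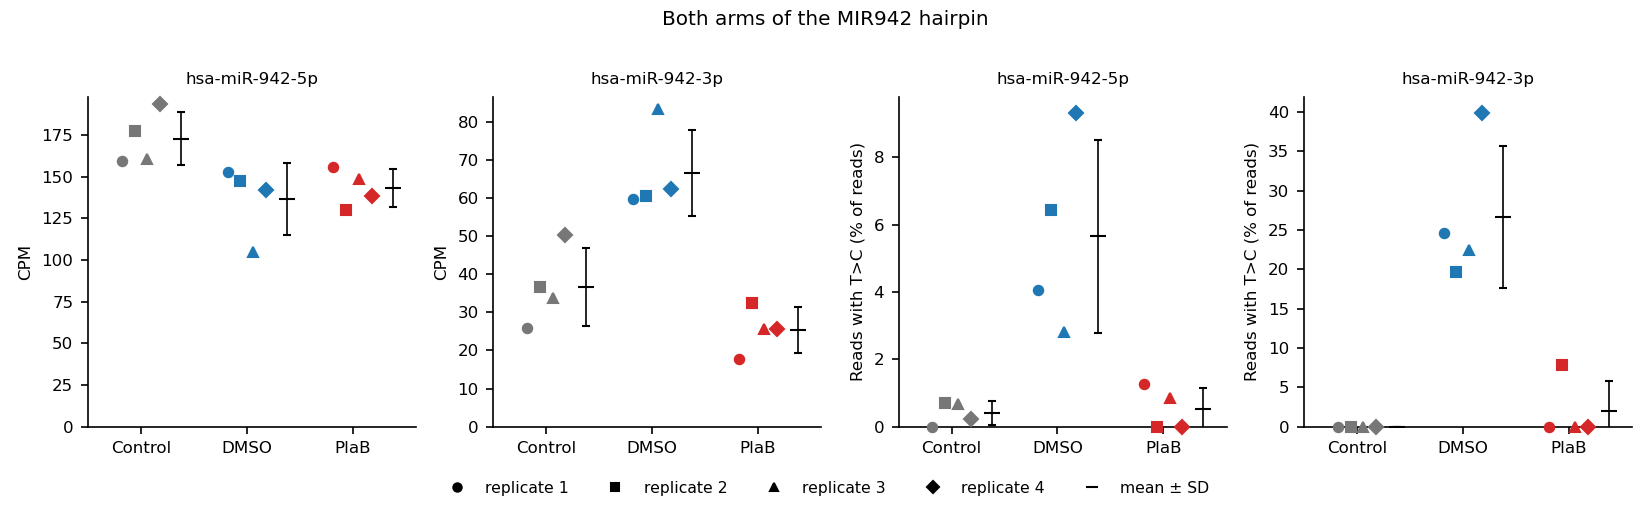
Reads in CPM (left pair) and reads with a T>C conversion in percent of reads (right pair) of miR-942-5p and miR-942-3p in the 12 libraries, on axes from 0 with separate scales; symbols mark the replicate number and the bar gives the mean ± SD of 4 libraries, with lower ends not drawn under 0. Both arms carry label mainly in DMSO, up to 9.32% of miR-942-5p reads and up to 39.8% of miR-942-3p reads.

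miR-618 was labelled above Control in PlaB, and no change from DMSO was detected. It had 30, 12, 2 and 17 conversions in DMSO and 4, 12, 14 and 14 in PlaB, against 0, 3, 0 and 4 in Control. Mean rates were 0.117 ± 0.0826% in DMSO and 0.135 ± 0.0668% in PlaB (SD, n = 4), with wide overlap. The DMSO rates also overlapped with those in Control: DMSO replicate 3 was at 0.0198% and Control replicate 4 at 0.0387%. The PlaB rates all lay above those in Control. The log2 fold change in PlaB against DMSO was 0.20 ± 0.716 (SE; adjusted p = 0.901), and against Control it was 2.58 ± 0.862 in DMSO (adjusted p = 0.00735) and 2.78 ± 0.871 in PlaB (adjusted p = 0.00715; edgeR in each case).

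miR-4326 likewise carried 8, 9, 2 and 7 conversions in DMSO and 1, 11, 6 and 3 in PlaB, with 0, 1, 1 and 0 in Control. The ranges of its rates overlapped between DMSO (0.0809% to 0.329%) and PlaB (0.0388% to 0.365%). The log2 fold change between them was -0.16 ± 0.90 (SE; edgeR, adjusted p = 0.958). Against Control it was 3.46 in DMSO (adjusted p = 0.00718) and 3.30 in PlaB (adjusted p = 0.0155). Both of these calls were lost when reads with a conversion were tested per read (adjusted p of 0.0534 and 0.0529). That in PlaB was also lost without Control replicate 1 (0.0511) and without PlaB replicate 2 (0.0588).

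miR-625-3p had 11, 12, 3 and 8 conversions in DMSO, 4, 1, 0 and 3 in PlaB, and 1, 2, 0 and 0 in Control. Rates in DMSO (0.124% to 0.353%) lay above those in Control (0% to 0.0613%), with a log2 fold change of 3.05 (edgeR, adjusted p = 0.0132). This call was lost without DMSO replicates 1 and 2 together (0.0594). The PlaB rates, 0% to 0.13%, overlapped with both. The change from DMSO to PlaB, -1.54 ± 0.993 (SE) on the log2 scale, did not pass the test (adjusted p = 0.225). Of its reads 85.6% to 99% were multi-mapped, although 1 locus is annotated. The 5p arm of this hairpin was at 4.6 CPM or less in every library.

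miR-641 had 6, 1, 5 and 0 conversions in DMSO and 0, 0, 2 and 3 in Control. In PlaB it had 0, 0, 21 and 4, so that 1 library held most of them. The log2 fold change in rate from DMSO to PlaB, 1.41 ± 1.11 (SE; edgeR, adjusted p = 0.339), was -0.93 without PlaB replicate 3. Neither labelled condition differed from Control by the test.

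miR-3158-3p was the least labelled of the 8. It had 2 conversions in DMSO replicate 1 and 0 in every other library. The pooled DMSO rate was 0.0201% (95% Wilson interval 0.00551% to 0.0732%) on 9955 covered T positions. In Control 0 conversions on 8735 positions allow up to 0.0343%, and in PlaB 0 on 7150 allow up to 0.042%, so that no labelling was detectable at this depth. Its reads were steady, at 180 to 235 CPM in Control, 166 to 208 CPM in DMSO and 159 to 220 CPM in PlaB. Between 91.7% and 99.7% of its reads were multi-mapped, over the pair of opposed hairpins shown above. The 5p arm reached 6.68 CPM at most and had 0 reads in PlaB.

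miR-4521 had the highest mean T>C rate of all 158 miRNAs in both labelled conditions. From a Control mean of 0.074 ± 0.0381%, the rate reached 4.48 ± 4.31% with DMSO and 4.77 ± 4.02% with PlaB (SD, n = 4). Against Control, the log2 fold change was 5.88 ± 0.682 in DMSO (SE; adjusted p = 4.55e-10) and 6.00 ± 0.686 in PlaB (adjusted p = 6.33e-10; edgeR in each case). Between PlaB and DMSO it was 0.13 ± 0.536 (adjusted p = 0.928).

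The counted rates of miR-4521 fell into separate levels within each labelled condition. This split went with how many conversions were counted per read with a conversion, as given below. In DMSO they were 0.883%, 8.46%, 0.631% and 7.95%, and in PlaB 8.28%, 8.23%, 1.38% and 1.20%. The share of its reads with a T>C conversion was 28.6%, 42.6%, 25.9% and 46.8% in DMSO, and 35.6%, 37.5%, 22.4% and 26.9% in PlaB. The same 4 libraries with low rates thus had the lower shares, 22.4% to 28.6%, and the 4 with high rates the higher ones, 35.6% to 46.8%. Control libraries were at 0.2% to 0.931%. The group means of this share, 36 ± 10.3% in DMSO and 30.6 ± 7.15% in PlaB, were also the highest of the 158.

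A read with a T>C conversion should hold at least 1 conversion, but conversions of miR-4521 were the fewer in the labelled libraries. There were 39, 169, 7 and 83 conversions on 306, 211, 79 and 137 such reads in DMSO, and 113, 83, 10 and 15 conversions on 143, 111, 52 and 90 such reads in PlaB. The libraries with low rates were those with few conversions counted: 39 on 306 such reads, 7 on 79, 10 on 52 and 15 on 90. Those with high rates had 169 on 211, 83 on 137, 113 on 143 and 83 on 111. The split in rates is therefore not by itself a measure of separate levels of labelling. The excess of reads over conversions was the largest of all miRNAs in DMSO replicates 1 and 3 and PlaB replicate 4 (267, 72 and 75 reads), and the second largest, after miR-455-3p, in the other 5 labelled libraries. The authors' pipeline leaves out T positions at which an alternate base reaches a fraction of 0.4, as a mask for genomic variants. The part of that mask in these rates was not tested. The authors also applied a read identity filter of 0.95, which by their account overrides the limit of 3 mismatches for miRNA reads. Whether reads with several conversions were left out of these read and conversion counts was not tested. The share of reads with a conversion counts a read once, however many conversions it holds. Its log2 fold change in DMSO against Control was 6.15 ± 0.364 (SE; edgeR, adjusted p = 5.1e-21), and in PlaB against DMSO -0.22 ± 0.276 (adjusted p = 0.556).

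Other properties of miR-4521 reads moved with the label. Reads covered 4.96 to 4.99 T positions each in Control, as the 5 U of the sequence allow, but 3.56 to 4.13 in DMSO and 3.11 to 3.74 in PlaB. Multi-mapped reads were 0.372% to 0.698% in Control, 17.2% to 29.4% in DMSO and 25.1% to 36.2% in PlaB. Both measures separated the Control from the DMSO libraries without overlap (exact two-sided permutation test, 4 against 4 libraries, p = 0.0286 for each, unadjusted). Among the other 7 members, covered T positions per read varied by at most 0.173 over the 12 libraries (miR-942-5p).

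In Control only 0.2% to 0.931% of miR-4521 reads had a conversion. The fall in reads could therefore only lie in the reads without a conversion. These numbered 1122, 667, 874 and 838 CPM in Control, 197, 86.7, 111 and 79.2 CPM in DMSO, and 170, 93.5, 113 and 128 CPM in PlaB. The means differed 7.39-fold between Control and DMSO. Uniquely mapped reads fell too, from 670 to 1117 CPM in Control to 105 to 227 CPM in DMSO. The DMSO and PlaB libraries overlapped in both measures.

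Among the other miRNAs over 100 CPM, the reads most like miR-4521 over the 12 libraries (Pearson r of log2(CPM + 1)) were those of miR-148a-5p (r = 0.948), miR-21-3p (r = 0.873) and miR-30e-3p (r = 0.867). miR-148a-5p had 327 to 407 CPM in Control and 146 to 192 CPM in the 8 labelled libraries. miR-21-3p went from 1492 to 2426 CPM in Control to 541 to 895 CPM in the labelled ones. These 12 libraries fall into labelled and unlabelled, and the correlations follow that division. For the other members the closest were miR-103a-3p for miR-941 (r = 0.866), miR-148a-5p for miR-942-5p (0.735), miR-374a-3p for miR-3158-3p (0.535), miR-106b-3p for miR-4326 (0.76), miR-378a-3p for miR-618 (0.83), miR-25-3p for miR-625-3p (0.883) and miR-320a-3p for miR-641 (0.681).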

How the data were processed

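Small RNA libraries of 12 Huh7 samples were analysed. The authors aligned trimmed reads to GRCh38 by SLAM-DUNK (nf-core slamseq 1.0.0) and counted over mature coordinates from miRBase 22, with no mapping quality filter and with masking of variants at a fraction of 0.4. A read identity filter of 0.95 also applied. Each deposited table holds counts (of reads, multi-mapped reads, covered T positions, conversions and reads that hold one), CPM values and the conversion rate as a fraction. From the counts, reads (TMM factors) and conversions (offset: log covered T positions) were fitted with edgeR 4.0.16 in R 4.3.3 over 12 libraries, with quasi-likelihood tests and Benjamini-Hochberg adjustment over 158 miRNAs (threshold 0.05). DESeq2 1.42.0, RLE factors, other filters, reads with a conversion, a replicate block and libraries left out were alternatives. SE is the log2 fold change divided by the square root of F. Single values were compared by exact permutation (70 labelings), which ignores the experiment number. Wilson intervals are at 95%. Libraries of the same experiment deviated together in log2 CPM (median r 0.557, lowest 0.208; different experiments -0.204), so the numbers pair the libraries in reads. In log2 rates they did not deviate together (median r 0.003, lowest -0.13). The miRNAs, lists and alternatives were chosen with earlier results of these data known. All 8 miRNAs, the second arms of their hairpins, miRNAs of shared seed and the most similar miRNAs are named. Python 3.11.15 was used otherwise. Per the labels, each library was 1 sample of 1 condition.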

Additional observations from a re-analysis of the deposited data

Results flagged for a closer look

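Reads in CPM, T>C rates and shares of reads with a T>C conversion of the 8 miRNAs gave 64 groups of 4 libraries that could be examined for a library far from its group by Dixon's ratio at its 95% critical value; 9 were flagged. Chance flags about 1 in 20 groups of continuous values, which is no expectation for these counts: where 3 libraries are at 0 any count in the remaining library is flagged, and the rate and the read share of one miRNA rest on the same conversions. In reads, these were miR-4521 in DMSO replicate 1 (275 CPM, the other 3 at 149 to 151), miR-618 in Control replicate 3 (574 CPM), and PlaB replicate 1 for both miR-625-3p (348 CPM, the nearest at 209) and miR-3158-3p (159 CPM, the nearest at 214). In labelling, miR-641 in PlaB replicate 3 had a rate of 1.37%, with the nearest at 0.185%, and 5.45% of its reads had a conversion. miR-3158-3p in DMSO replicate 1 had a rate of 0.0573% and 0.287% of reads with a conversion, and miR-942-5p in PlaB replicate 3 had a rate of 0.0815%; in these groups the other 3 libraries were at 0. DMSO replicate 1 is one of the libraries that combine 3 sequencing runs, including a second library preparation and a re-amplified library.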

How the results depend on the processing

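Over 38 results of the 8 miRNAs and 706 alternative values, none of the 13 calls reversed (0), 4 were lost under some alternative and 1 uncalled result was gained. The calls for miR-4521, miR-941, miR-942-5p and miR-618 held throughout.

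For reads in DMSO against Control, 1 member was called with no filter and without DMSO replicates 1 and 2, and 1 to 2 on leaving out 1 library. Of all miRNAs, 13 were called by DESeq2, 32 with filterByExpr, 43 with no filter, 29 with the replicate block, 4 without DMSO replicates 1 and 2 and 5 to 9 on leaving out 1 library, beside 8. For reads in PlaB against DMSO, 1 member was called with RLE factors, DESeq2 or the replicate block, and 0 to 1 on leaving out 1 library. Of all miRNAs, 2 were called with RLE, DESeq2, filterByExpr or the replicate block, 5 with no filter, 0 without DMSO replicates 1 and 2 and 0 to 2 on leaving out 1 library, beside 1. Rates in PlaB against DMSO gave 45 calls without DMSO replicates 1 and 2, beside 71. The replicate block changed no other call of the 8 miRNAs.

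Directions reversed only for results that were not called. With reads carrying a conversion per read, log2 fold changes were 0.28 for miR-942-5p in PlaB against Control (0.32 with the block), 0.19 for miR-4326 in PlaB against DMSO and -0.22 for miR-4521 (-0.21 with the block). On leaving out 1 library, reads in DMSO against Control ranged from -0.15 to 0.27 (miR-941), -0.0053 to 0.11 (miR-618) and -0.037 to 0.15 (miR-641). Reads in PlaB against DMSO ranged from -0.046 to 0.15 (miR-942-5p), -0.21 to 0.31 (miR-4521), -0.0091 to 0.13 (miR-618) and -0.097 to 0.28 (miR-625-3p). Rates in PlaB against DMSO ranged from -0.72 to 0.17 (miR-4326), -0.29 to 0.68 (miR-4521), -0.14 to 0.59 (miR-618) and -0.93 to 1.97 (miR-641), and in PlaB against Control from -0.15 to 2.93 (miR-641). The cause was not tested. With few conversions per library, depth limits what can be seen for miR-641, miR-3158-3p and miR-625-3p.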
